A study of Mus musculus with 20 samples.

Results

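Glis1, Adgrg1 and Fam46b are 3 of the 11075 genes measured in NIH3T3 cells, a fibroblast line from mouse embryos, whose transcripts were less abundant under low CO2 and more abundant after NaOH. They were chosen by these values, as genes that fell at 1% CO2 and rose with NaOH at 2 or 4 h, so their differences from 0 h and between the treatments are described here without a test. The 20 libraries comprised 4 each of cells at 1% CO2 for 2 h and for 4 h, cells given NaOH (18 mM) for 2 h and for 4 h, and control cells at 5% CO2 at 0 h. Cells with NaOH stayed at 5% CO2, cells at 1% CO2 were moved to another incubator, and all groups were one cell line in the same bicarbonate-buffered medium without a genetic change. The 0 h libraries served both treatments. Untreated libraries of the later times were not analysed here, so time since 0 h and handling cannot be told apart from the treatment in a comparison with 0 h. Both treatments make the medium alkaline, and these genes moved in opposite directions in them. Which feature of either treatment a change follows was not tested.

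Glis1 encodes a zinc finger transcription factor related to the Gli proteins of hedgehog signalling, and is known for helping somatic cells return to a pluripotent state. Adgrg1, also called Gpr56, encodes an adhesion G protein-coupled receptor, a class of receptors that cut themselves near the membrane and whose long outer part binds the matrix, in this case collagen III and transglutaminase 2. It signals through G12/13 proteins to RhoA and the actin cytoskeleton, and is best known from the developing brain. Fam46b, now named Tent5b, belongs to a family of non-canonical poly(A) polymerases, enzymes that lengthen the tails of RNAs outside the standard cleavage reaction. The libraries were made from the 3′ ends of polyadenylated RNA.

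Glis1 lies on the plus strand of chromosome 4 (chr4:107426636-107635061, GRCm38.p6, the assembly of mm10), Fam46b on the plus strand of the same chromosome (chr4:133480133-133487940), 25.8 Mb away, and Adgrg1 on the plus strand of chromosome 8 (chr8:94974756-95014208). An antisense transcript, Gm13257, overlaps the 5′ end of Fam46b and a miRNA gene, Gm24804, lies at the Glis1 start of the GENCODE annotation (position 107434591), which is inside the RefSeq interval given above. Neither is in the table of counts, and neither reaches the 3′ end of the gene it overlaps. The promoters are shown because the rule puts these genes together. They run from 250 bases before to 50 after a transcript start and come from RefSeq (GRCm38.p6, chr4:107434469-107434768 for Glis1, chr8:94984149-94984448 for the second of the pair listed for Adgrg1, chr4:133479883-133480182 for Fam46b, all plus strand). The Glis1 window lies at the GENCODE start and not at the outermost RefSeq start. Capitals mark matches to the motifs searched on both strands.
Glis1: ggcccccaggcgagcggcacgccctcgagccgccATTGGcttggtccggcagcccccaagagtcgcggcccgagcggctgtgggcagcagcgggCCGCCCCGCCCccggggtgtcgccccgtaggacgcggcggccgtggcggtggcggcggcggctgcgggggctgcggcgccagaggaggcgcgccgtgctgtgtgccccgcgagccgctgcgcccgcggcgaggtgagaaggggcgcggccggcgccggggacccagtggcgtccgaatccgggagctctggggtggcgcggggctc
Adgrg1: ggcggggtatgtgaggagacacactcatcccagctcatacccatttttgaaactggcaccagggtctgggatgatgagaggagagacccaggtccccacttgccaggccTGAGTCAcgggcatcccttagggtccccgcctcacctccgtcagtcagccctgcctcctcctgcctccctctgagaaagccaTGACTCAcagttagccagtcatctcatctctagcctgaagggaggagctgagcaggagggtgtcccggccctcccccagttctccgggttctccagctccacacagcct
Fam46b: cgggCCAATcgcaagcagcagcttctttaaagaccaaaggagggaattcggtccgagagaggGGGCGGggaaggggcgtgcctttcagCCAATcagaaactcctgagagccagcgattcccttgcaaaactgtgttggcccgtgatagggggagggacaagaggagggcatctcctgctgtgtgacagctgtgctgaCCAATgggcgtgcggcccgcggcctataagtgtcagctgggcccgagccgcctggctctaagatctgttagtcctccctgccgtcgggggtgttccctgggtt

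The Adgrg1 sequence holds 2 matches to the AP-1 motif TGANTCA, beginning at bases -141 and -59 from the start, a motif in 5.10% of the 11347 promoters of genes in the table. It holds no match to the other motifs, and the other Adgrg1 promoter (chr8:94976859-94977158) has no match to any of the 9. The Fam46b promoter carries 3 CCAAT boxes, the NF-Y motif, in the same orientation at -246, -162 and -53, and 1 GGGCGG of the SP/KLF type. The Glis1 promoter carries 1 CCAAT box on the minus strand and 2 GGGCGG matches, also on the minus strand, which share a base. At least 1 CCAAT was present in 38.2% and at least 1 GGGCGG in 63.6% of all these promoters. No promoter of the 3 genes held the CRE (TGACGTCA, 3.09% of all), the E-box CACGTG (10.2%), the EGR motif GCGNGGGCG (10.6%), the TEAD motif GGAATG (12.01%), the GLI motif GACCACCCA (0.229%) or a CArG box (1.30%). Overlaps between different motifs were not found. The GC content was 81.3% for Glis1 and 60.7% for each of the other promoters, against a median of 61% for all, and the Glis1 promoter contained 47 CG pairs against a median of 21. A match to such letters describes the window and is no evidence that a factor binds there.

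The libraries were of uneven depth, with 1325293 to 5640523 UMIs (unique molecular identifiers, 1 per captured RNA molecule) in total. The totals of 1% CO2 2 h replicate 4 (3010000) and 0 h replicate 2 (3890000) were round numbers, and each was left out in turn in the fits without 1 library. All 7 fibroblast markers looked at were abundant, with Col1a1 at 29411 to 45272 normalized counts, while of the 16 markers of other cells (muscle, fat, endothelium, epithelium, immune cells) only Cd14 (39.0 to 105), Cd68 (0.927 to 9.16) and Des (9.30 to 28.0) passed the filter on low counts. Levels are given as UMI counts scaled with TMM factors to a common library size, called normalized counts. Differences are log2 fold changes (log2FC) from edgeR's quasi-likelihood fit over all 20 libraries and 9726 genes, with the standard error (SE) after them. A gene counts as called if its Benjamini-Hochberg adjusted p was 0.05 or less and its log2FC was 1 or more in size, which are the thresholds of the study. The study set them on DESeq2 fold changes fitted with a prior (betaPrior), so the cut is not the same. Under its settings 133 genes were called lower after 2 h of 1% CO2, compared with 231 here. Since RNA was taken from whole cultures, fewer cells with a transcript and less of it per cell cannot be told apart.

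**Figure D1:**
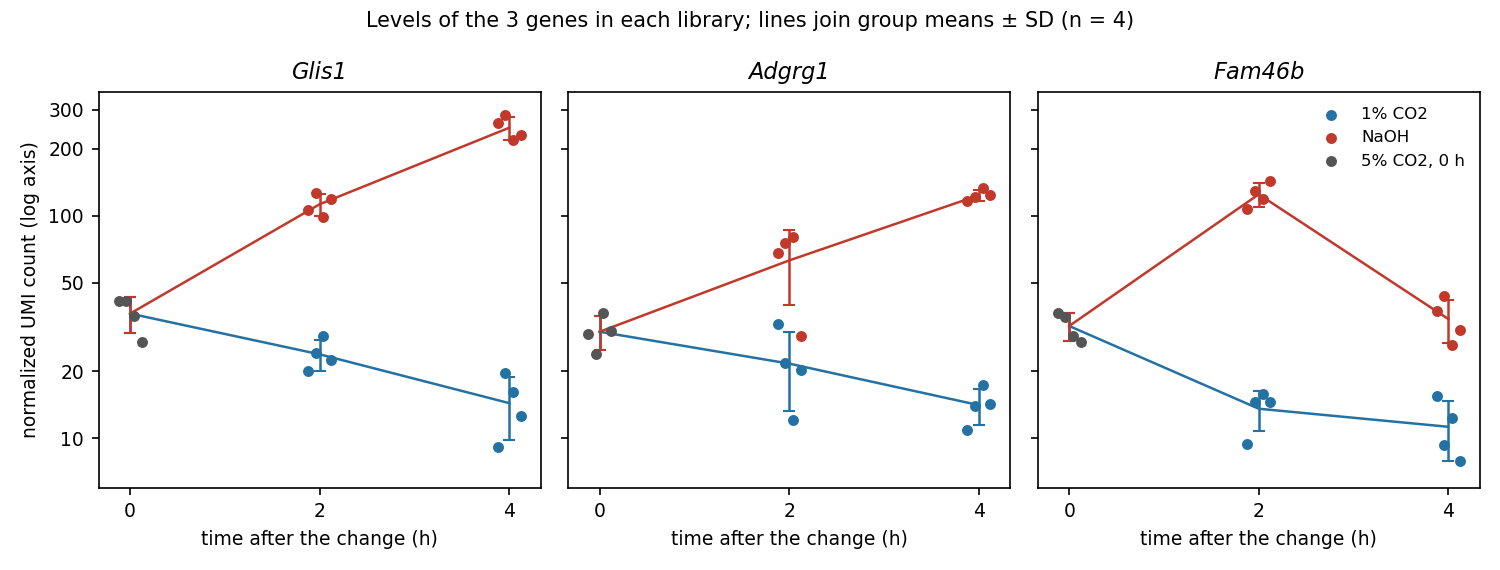
Normalized UMI count (log axis) of Glis1, Adgrg1 and Fam46b in each of the 20 libraries against the time after the change of CO2 or the addition of NaOH (h). Points are libraries, lines join group means and bars are the SD (n = 4), with the 0 h libraries shared by both treatments. Glis1 and Adgrg1 spread further apart at 4 h than at 2 h, whereas Fam46b with NaOH is back at the 0 h level at 4 h.

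Glis1 diverged in both directions and was furthest from 0 h at 4 h. At 1% CO2 it had 19.99, 24.3, 28.7 and 22.4 normalized counts after 2 h. After 4 h it had 9.14, 19.8, 16.1 and 12.6. With NaOH it had 106, 127, 98.7 and 119 normalized counts after 2 h, and 260.1, 285, 219 and 230.2 after 4 h. All 8 NaOH libraries were thus above the 0 h libraries, which had 41.2, 41.4, 35.7 and 27.2. All 4 libraries of 1% CO2 at 4 h were below them, but at 2 h only 3 of 4 were, the library with 28.7 lying inside the 0 h range.

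The group means of Glis1 were 23.9 ± 3.70 after 2 h and 14.4 ± 4.56 after 4 h of 1% CO2, 113 ± 12.9 and 249 ± 29.8 after 2 and 4 h of NaOH, and 36.4 ± 6.69 at 0 h (SD, n = 4 each). After 4 h of 1% CO2 the level was 2.58-fold lower than at 0 h (log2FC -1.37, SE 0.23), and after 2 h it had a log2FC of -0.61 (SE 0.19), short of the threshold. With NaOH the level was 3.02-fold higher at 2 h (log2FC 1.59, SE 0.15) and 6.74-fold higher at 4 h (2.75, SE 0.14). At 4 h the difference of 1% CO2 from NaOH reached a log2FC of -4.12 (SE 0.18), and only 7 of the 9726 genes had a lower one. The order of the 5 levels was NaOH 4 h, NaOH 2 h, 0 h, 1% CO2 2 h and 1% CO2 4 h, and of the neighbours in this order only 0 h and 1% CO2 2 h overlapped.

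Adgrg1 followed the same course as Glis1 with smaller distances and more scatter. At 1% CO2 it had 32.6, 21.9, 12.1 and 20.2 normalized counts after 2 h and 10.96, 14.0, 17.3 and 14.2 after 4 h. With NaOH it had 67.8, 75.3, 80.4 and 28.7 after 2 h. After 4 h of NaOH it had 117, 121, 133 and 124, and the control cells at 0 h had 29.5, 23.9, 36.8 and 30.4. At 4 h both treatments were clear of the 0 h libraries, while at 2 h each treatment had 1 library inside the 0 h range. That of NaOH was replicate 4, with 28.7, a library in which Glis1 (119) and Fam46b (144) were as high as in the others of its group.

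For Adgrg1 the means were 21.7 ± 8.46 after 2 h and 14.1 ± 2.61 after 4 h of 1% CO2, 63.1 ± 23.5 and 124 ± 6.77 after 2 and 4 h of NaOH, and 30.2 ± 5.27 at 0 h (SD, n = 4 each). The log2FC over 0 h was -0.47 (SE 0.26) after 2 h and -1.09 (SE 0.30) after 4 h of 1% CO2. The value at 2 h of 1% CO2 depended on single libraries, with -0.25 without replicate 3 and -0.70 without replicate 1. With NaOH it was 1.04 (SE 0.23) after 2 h and 2.05 (SE 0.20) after 4 h. The values of 1.04 and -1.09 lay close to the threshold of 1, and both calls were lost in some other fits. Without replicate 1, 2 or 3 of NaOH 2 h or replicate 2 of 0 h the log2FC at 2 h of NaOH was below 1, with 0.87 as the lowest, and without replicate 4 it was 1.31. At 4 h of 1% CO2 the call was lost without replicate 1 of that group (log2FC -0.96) and without replicate 3 of 0 h (-0.997). With DESeq2 under the settings of the study both log2FC fell short of 1 as well, with -0.87 for 1% CO2 at 4 h and 0.94 for NaOH at 2 h. The levels ran in the same order as those of Glis1, and here the libraries of each pair of neighbours below NaOH 4 h overlapped.

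Fam46b went apart earliest and then came back on one side only. At 1% CO2 it had 9.47, 14.6, 15.8 and 14.6 normalized counts after 2 h and 15.5, 9.30, 12.4 and 7.90 after 4 h. With NaOH it had 107, 129.9, 119 and 144 after 2 h, but 37.3, 43.5, 26.2 and 30.6 after 4 h. The control cells had 36.8, 35.1, 29.0 and 27.2 at 0 h. All 8 libraries of 1% CO2 were below the 0 h libraries, and all 4 of NaOH at 2 h were above them. Those of NaOH at 4 h lay on both sides, 2 of them above the 0 h range.

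Mean levels of Fam46b were 13.6 ± 2.81 after 2 h and 11.3 ± 3.40 after 4 h of 1% CO2, 125 ± 15.7 and 34.4 ± 7.59 after 2 and 4 h of NaOH, and 32.0 ± 4.64 at 0 h (SD, n = 4 each). The log2FC was -1.24 (SE 0.22) after 2 h of 1% CO2, 2.36-fold lower, and -1.46 (SE 0.24) after 4 h. After 2 h of NaOH it was 1.93 (SE 0.16), 3.81-fold higher, and after 4 h 0.08 (SE 0.18). In this gene the order was NaOH 2 h, NaOH 4 h, 0 h, 1% CO2 2 h and 1% CO2 4 h, with overlap between NaOH 4 h and 0 h and between the groups at 1% CO2. The calls of Glis1 and Fam46b against 0 h were kept in all 27 other fits, 20 of them without 1 library each.

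Of the 3 genes, 1 was called lower after 2 h and 3 after 4 h of 1% CO2, where 2.38% and 3.98% of all tested genes were called lower and 3.16% and 4.06% higher. With NaOH 3 were called higher after 2 h and 2 after 4 h, where 6.68% and 7.60% of the tested genes were higher and 5.33% and 7.96% lower. All 3 were called lower at 1% CO2 than with NaOH, both at 2 h (3.76% of tested genes lower) and at 4 h (3.18%). These shares say how common such calls were, and nothing more is read from the counts because the rule used the same contrasts. No member was called in both directions at both times. Fam46b was so at 2 h, and Glis1 and Adgrg1 at 4 h.

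The course between 2 and 4 h was not part of the rule, but it uses libraries by which the genes were chosen, and a gene picked for its level at 1 of the times tends to differ between them. The following tests are therefore not independent evidence. With NaOH, Glis1 rose between 2 and 4 h (249 normalized counts at 4 h and 113 at 2 h; log2FC 1.159, SE 0.13, edgeR adjusted p = 3.7e-09). Adgrg1 rose too (124 and 63.1; log2FC 1.02, SE 0.19, edgeR adjusted p = 9.7e-05), while Fam46b fell to 34.4 normalized counts at 4 h, against 125 at 2 h (a log2FC of -1.85, SE 0.16, and an edgeR adjusted p = 2.4e-11). In each of them the 4 libraries of 4 h did not overlap those of 2 h, which held for 27.5% of all tested genes, while 2.72% of them were called higher and 4.07% lower. The Adgrg1 call was lost without replicate 4 of NaOH 2 h (log2FC 0.74), without replicate 3 of NaOH 4 h (0.98) and with DESeq2 (0.95).

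At 1% CO2 none of the 3 was called between 2 and 4 h, and few genes were, with 0.668% higher and 0.658% lower. Glis1 had a log2FC of -0.76 (SE 0.25, edgeR adjusted p = 0.036), its libraries at 4 h all below those at 2 h. The highest at 4 h had 19.8 and the lowest at 2 h had 19.99 normalized counts. Of all tested genes, 8.69% had all libraries at 4 h below those at 2 h. For Glis1 the edgeR adjusted p was 0.19 without replicate 1 of 1% CO2 at 4 h. DESeq2 under the study's settings gave an adjusted p of 0.082. The log2FC of Adgrg1 was -0.62 (SE 0.33, edgeR adjusted p = 0.21) and that of Fam46b -0.22 (SE 0.29, edgeR adjusted p = 0.67), with overlapping libraries in both. The change between 2 and 4 h, NaOH minus 1% CO2, was 1.92 (SE 0.28) for Glis1, 1.64 (SE 0.38) for Adgrg1 and -1.63 (SE 0.35) for Fam46b on the log2 scale, where 1.90% of tested genes were called higher and 2.59% lower. This difference is made of the group values that chose the genes, with Glis1 and Adgrg1 meeting the rule at 4 h and Fam46b at 2 h, so its sign follows from the choice and it is given as a description.

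**Figure D2:**
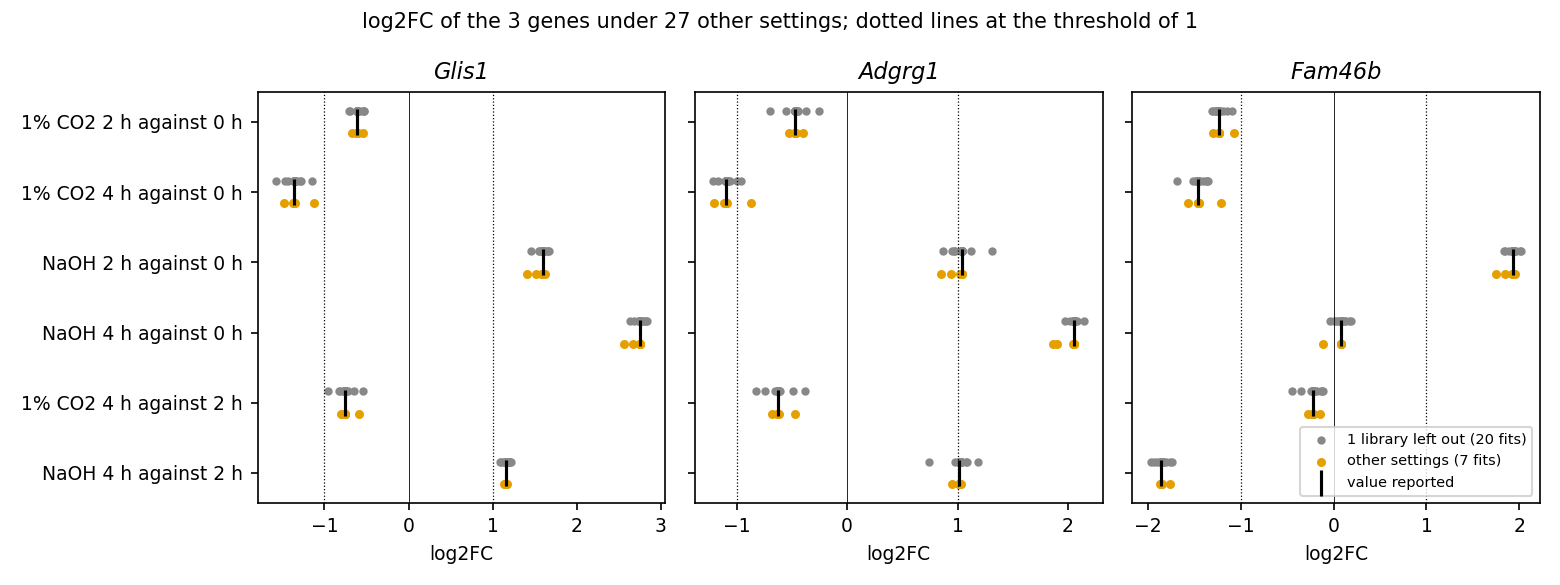
The log2FC of the 3 genes (x axis) in 6 comparisons (rows), as reported (black bar), in 20 fits with 1 library left out (grey) and in 7 other fits (orange), with dotted lines at the threshold of 1 in size. Values of Glis1 and Fam46b stay on their side of the lines, whereas Adgrg1 crosses them after 4 h of 1% CO2, after 2 h of NaOH and between 2 and 4 h of NaOH.

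How firmly the low ends are known was limited by counting. The 4 libraries of 1% CO2 at 4 h held 48 UMIs of Glis1, 47 of Adgrg1 and 40 of Fam46b in all, with 5 as the lowest count of a library. There the coefficient of variation (SD over mean) was 31.7% for Glis1, 18.5% for Adgrg1 and 30.1% for Fam46b, where counting alone gives 29.7%, 29.4% and 33.99%. The scatter of Adgrg1 at 2 h was larger than counting gives, 39.0% against 22.1% at 1% CO2 and 37.2% against 15.5% with NaOH. Its biological coefficient of variation in the fit was 0.159, higher than that of 93.3% of the tested genes, compared with 0.0921 for Glis1, 0.0972 for Fam46b and a median of 0.0930. Within groups the 3 genes did not run in parallel over the libraries. Their deviations from the group means were correlated over the 20 libraries, where the 3 genes of a library share its depth and handling. The correlation was -0.20 for Glis1 and Adgrg1, 0.24 for Glis1 and Fam46b and -0.52 for Adgrg1 and Fam46b.

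Genes with calls in opposite directions were rare. After 2 h 4 genes were called lower at 1% CO2 and higher with NaOH, namely Fam46b, Fosb, Gadd45b and Usp53. After 4 h there were 6, namely Glis1, Adgrg1, Fosb, Bach2, Herc3 and 2210416O15Rik. Together these are 9 genes, of which 4 (Usp53, Bach2, Herc3 and 2210416O15Rik) averaged fewer than 10 normalized counts over all libraries. Counting any pair of times, Btg2, Fos, Pdzrn3 and Zfp462 make 13 genes. The opposite pattern, higher at 1% CO2 and lower with NaOH, was called in 1 gene at 2 h and 1 at 4 h. With DESeq2 under the settings of the study 2 genes met the rule at 2 h and 1 at 4 h, and with a mean of at least 20 normalized counts 3 met it at 4 h.

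Beside the members, the AP-1 subunit Fosb and the stress-induced gene Gadd45b showed the pattern at the highest levels. Gadd45b had 1734, 1525, 2172 and 1779 normalized counts after 2 h of NaOH and 52.6, 51.8, 52.9 and 49.4 after 2 h of 1% CO2, against 134, 133, 99.2 and 130.4 at 0 h. Fosb had 759, 649, 708 and 630.0 after 2 h of NaOH and 2.10, 0.810, 2.78 and 1.12 after 2 h of 1% CO2, against 7.24, 2.39, 3.34 and 7.999 at 0 h. Both moved further with NaOH than Fam46b, and the fall of Fosb rests on a few UMIs per library.

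The thresholds set who is in the group. Taking the smaller of a gene's 2 changes in size, the genes just inside at 2 h were Usp53 (1.08) and Fam46b (1.24) and those just outside were the homeobox gene Hoxb8 (0.992) and Rasl11b (0.963). At 4 h Bach2 (1.03) and Adgrg1 (1.09) were just inside, and Usp53 (0.992) and Creb3l1 (0.935) just outside. Without the threshold on size, 59 genes passed the adjusted p in both directions at 2 h and 91 at 4 h.

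**Figure D3:**
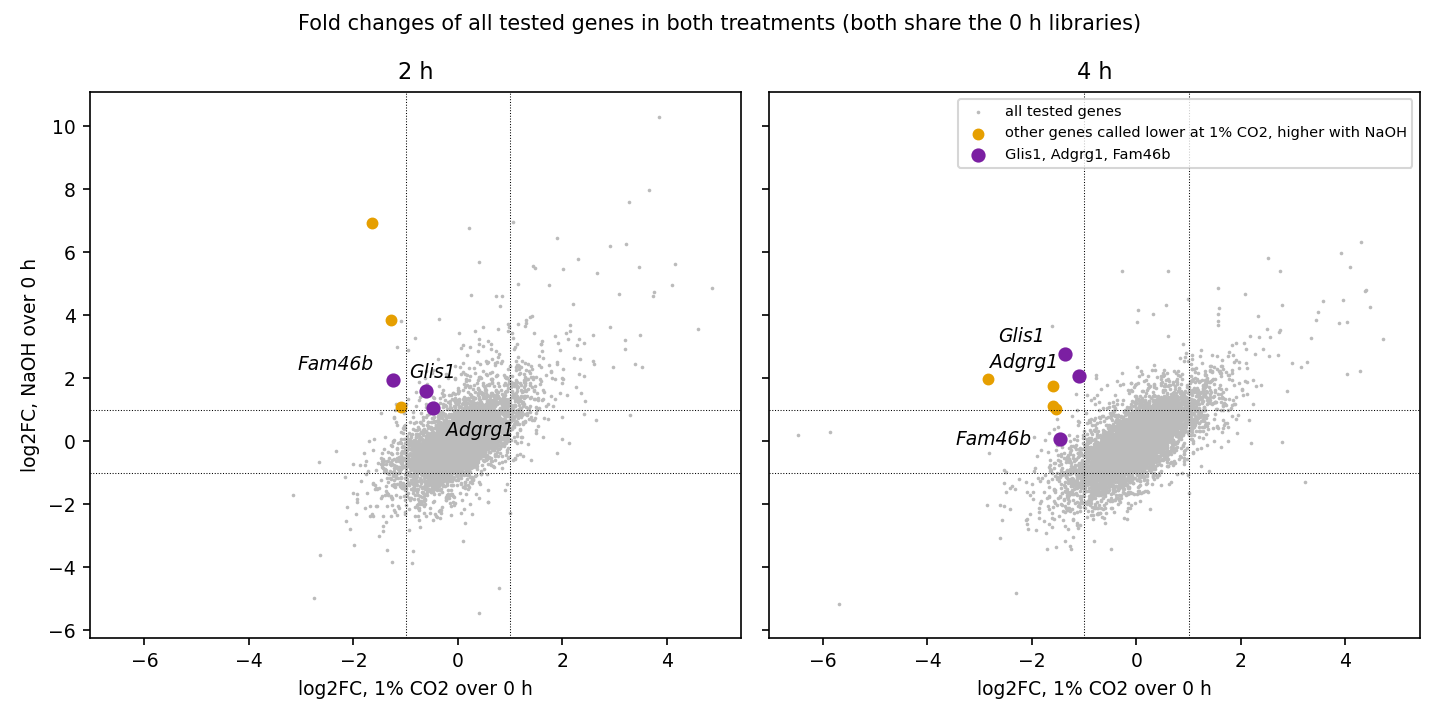
The log2FC over 0 h of 1% CO2 (x axis) and of NaOH (y axis) for all 9726 tested genes (grey) at 2 h (left) and 4 h (right), with the 3 members (purple) and the other genes called lower at 1% CO2 and higher with NaOH (orange). Dotted lines mark 1 in size. Fam46b lies in the upper left corner at 2 h, and Glis1 and Adgrg1 lie there at 4 h, with 3 and 4 other genes. Both axes share the 0 h libraries.

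Relatives of Glis1 were called in either direction. Of the 6 other genes of the Gli family and hedgehog signalling that were tested, 1 was called lower after 2 h and 1 after 4 h of 1% CO2, none after 2 h of NaOH, and 1 higher and 1 lower after 4 h of NaOH. Over all tested genes the shares called lower were 2.38% and 3.98% at 1% CO2, and after 4 h of NaOH 7.60% were higher and 7.96% lower, so that with 6 genes nothing is read from the counts. Their median log2FC was -0.17 and -0.18 after 2 and 4 h of 1% CO2 and -0.30 and 0.12 after 2 and 4 h of NaOH, beside -0.01, -0.01, -0.03 and 0.00 for all tested genes. Gli1, both an effector and a target of hedgehog signalling, fell in both treatments, with a log2FC of -1.07 (SE 0.21) and -2.11 (SE 0.26) after 2 and 4 h of 1% CO2 and -1.30 (SE 0.22) after 4 h of NaOH. After 2 h of NaOH its log2FC was -0.20 (SE 0.20). Glis3, a close relative, rose with NaOH at 4 h (log2FC 1.01, SE 0.17) but had -0.47 (SE 0.22) after 2 h of NaOH. It had -0.48 (SE 0.21) and -0.11 (SE 0.21) after 2 and 4 h of 1% CO2. Glis2 had 0.69 (SE 0.09) and 0.77 (SE 0.08) after 2 and 4 h of NaOH. After 2 and 4 h of 1% CO2 it had 0.11 (SE 0.09) and -0.54 (SE 0.09). None of these values of Glis2 reached 1 in size, and that after 2 h of 1% CO2 did not pass the adjusted p either. At 4 h Glis2 was among the 91 genes that passed the adjusted p in both directions.

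Of the other adhesion receptors 6 were tested. After 4 h of 1% CO2 1 was called higher and none lower, after 4 h of NaOH 1 was called lower and none higher, and none was called at 2 h. Of all tested genes, 4.06% were called higher after 4 h of 1% CO2 and 7.96% lower after 4 h of NaOH. With 6 receptors nothing is read from the counts. The medians were 0.04, 0.20, -0.02 and 0.48 in the order of 1% CO2 2 and 4 h and NaOH 2 and 4 h. Adgre5, known as the leukocyte receptor CD97, rose at 1% CO2, with a log2FC of 1.37 (SE 0.12) after 4 h, and had 0.89 (SE 0.12) after 2 h and 0.59 (SE 0.13) and 0.56 (SE 0.13) after 2 and 4 h of NaOH. Adgrd1 was scarce, with a mean of 7.93 normalized counts at 0 h, and fell with NaOH at 4 h (log2FC -1.05, SE 0.41). At 1% CO2 it had -0.99 (SE 0.42) after 4 h, which was not called.

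Among 13 ligands and partners of Adgrg1 and proteins of the route from G12/13 to RhoA, only Tgm2, the transglutaminase that binds the receptor, was called. It rose with NaOH, with a log2FC of 1.08 (SE 0.08) after 2 h and 1.29 (SE 0.08) after 4 h, and had 0.02 (SE 0.08) and -0.01 (SE 0.09) after 2 and 4 h of 1% CO2. The collagen ligand Col3a1 had a log2FC of 0.07 and 0.08 after 2 and 4 h of 1% CO2 and -0.32 and -0.38 after 2 and 4 h of NaOH, with none called. Rhoa stayed within 0.11 of 0 in all of them. The medians of the 13 were 0.07 and 0.08 after 2 and 4 h of 1% CO2 and 0.00 and 0.11 after 2 and 4 h of NaOH. Of all tested genes, 6.68% were called higher after 2 h and 7.60% after 4 h of NaOH. With 13 genes nothing is read from the counts.

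Of 10 other genes of the Fam46 family and of enzymes that add tails, none was called at 1% CO2. After 2 h of NaOH 1 was higher and 1 lower, and after 4 h 1 was lower. Their medians were 0.15 and -0.06 after 2 and 4 h of 1% CO2 and 0.31 and 0.32 after 2 and 4 h of NaOH. Of all tested genes, 2.38% and 3.98% were called lower and 3.16% and 4.06% higher after 2 and 4 h of 1% CO2. With NaOH 6.68% were higher and 5.33% lower after 2 h, and 7.96% were lower after 4 h. With 10 genes nothing is read from the counts. Fam46a, the other family member tested, had log2FC of 0.01 and -0.15 after 2 and 4 h of 1% CO2 and -0.48 and -0.39 after 2 and 4 h of NaOH. Papd7, another non-canonical polymerase, rose with NaOH at 2 h (log2FC 1.32, SE 0.12), when Papolg, a nuclear poly(A) polymerase, fell (-1.02, SE 0.30). Papd7 was also up, short of a call, after 4 h of NaOH (0.85, SE 0.12). At 1% CO2 it had 0.81 (SE 0.12) after 2 h and 0.58 (SE 0.12) after 4 h. Papolg was also lower after 4 h of NaOH (-1.33, SE 0.29). At 1% CO2 Papolg had -0.24 (SE 0.25) after 2 h and -0.76 (SE 0.28) after 4 h.

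Of 15 genes that shorten or bind tails, Btg2, which recruits the deadenylase complex, was the only one called. It rose with NaOH at 2 h (log2FC 1.78, SE 0.19) and fell at 4 h, with log2FC of -1.06 (SE 0.26) at 1% CO2 and -1.48 (SE 0.27) with NaOH. At 2 h of 1% CO2 its log2FC was 0.55 (SE 0.20). The medians of the 15 genes were 0.02 and -0.08 after 2 and 4 h of 1% CO2 and 0.02 and 0.13 after 2 and 4 h of NaOH. Of all tested genes, 6.68% were called higher after 2 h of NaOH. After 4 h 3.98% were called lower at 1% CO2 and 7.96% with NaOH. With 15 genes nothing is read from the counts.

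Of 18 neighbours on the chromosome, the 3 nearest genes of the table on each side, 1 was lower after 2 h of 1% CO2, and 1 was higher and 1 lower after 4 h. With NaOH 1 was lower after 2 h, and 2 were higher and 1 lower after 4 h. Over all tested genes, 2.38% (2 h) and 3.98% (4 h) were lower and 4.06% (4 h) higher at 1% CO2, and 5.33% (2 h) and 7.96% (4 h) were lower and 7.60% (4 h) higher with NaOH, so that with 18 genes nothing is read from the counts. Lrp8, a lipoprotein receptor 167 kb from Glis1, rose after 4 h in both treatments, with a log2FC of 1.87 (SE 0.24) at 1% CO2 and 1.18 (SE 0.25) with NaOH. Hspb11, on the other side of Glis1, fell with NaOH at 4 h (-1.18, SE 0.14). After 4 h of 1% CO2 it had -0.81 (SE 0.14), which was not called. Beside Adgrg1, the kinesin gene Kifc3 rose with NaOH at 4 h (1.12, SE 0.10). After 4 h of 1% CO2 it had 0.97 (SE 0.11), just short of the threshold. Also near Adgrg1, Cngb1, a subunit of a cyclic nucleotide-gated channel, fell at 1% CO2 (-1.51 at 2 h, SE 0.33, and -1.39 at 4 h, SE 0.34). It fell with NaOH at 2 h too (-1.50, SE 0.35). Dok4, 98.4 kb from Adgrg1, was not called. It had log2FC of -0.68 (SE 0.13) and -0.95 (SE 0.14) after 2 and 4 h of 1% CO2. After 2 and 4 h of NaOH it had 0.35 (SE 0.12) and 0.57 (SE 0.11). At 2 h and at 4 h Dok4 was among the genes that passed the adjusted p in both directions. No neighbour of Fam46b was called, and Trnp1, which starts only 3.16 kb after it, had log2FC of -0.17 and -0.18 after 2 and 4 h of 1% CO2 and 0.02 and -0.19 after 2 and 4 h of NaOH.

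The likeness of other genes to a member over the libraries was measured as Pearson's r of log2 CPM (UMIs relative to the TMM-scaled library total, prior count of 2) over the 20 libraries, among 7893 other genes with a mean of at least 20. Glis1 was most like Eif2b2, a subunit of the exchange factor of translation initiation (r = 0.968), followed by Creb3l1 (0.962), Nrn1 (0.959), Fam101b (0.945) and Plekho1 (0.944). Adgrg1 was most like Creb3l1 (0.948), Nmnat2 (0.941), Avpi1 (0.928), Mark3 (0.928) and Klhl26 (0.926). The shared gene Creb3l1, a transcription factor held in the membrane of the endoplasmic reticulum, had a log2FC of -0.46 and -0.94 after 2 and 4 h of 1% CO2 and 0.89 and 1.46 after 2 and 4 h of NaOH, with only the last called. Between Glis1 and Adgrg1 themselves r was 0.924, between Glis1 and Fam46b 0.682 and between Adgrg1 and Fam46b 0.574. These values take in the group differences by which the genes were chosen. With the group means removed they were -0.20, 0.24 and -0.52 in the same order.

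Among the 5 genes most like Fam46b were the deubiquitinase gene Usp2 (r = 0.948), Fosb (0.935), Fam107b (0.933) and Hoxb8 (0.932). Usp2 had 284, 319, 279 and 276 normalized counts after 2 h of NaOH and 108, 141, 99.99 and 76.0 after 4 h, against 63.5, 74.1, 56.8 and 64.8 at 0 h. Like Fam46b it was called higher with NaOH at 2 h (log2FC 2.14) and not at 4 h (0.70), but at 1% CO2 its log2FC was -0.22 at 2 h and -0.87 at 4 h, and neither was called. Such values of r are a description over groups of 4 libraries, and the lists depend on the measure, since Spearman's rho shared 2 of the 5 genes for Glis1, 3 for Adgrg1 and 1 for Fam46b.

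**Figure D4:**
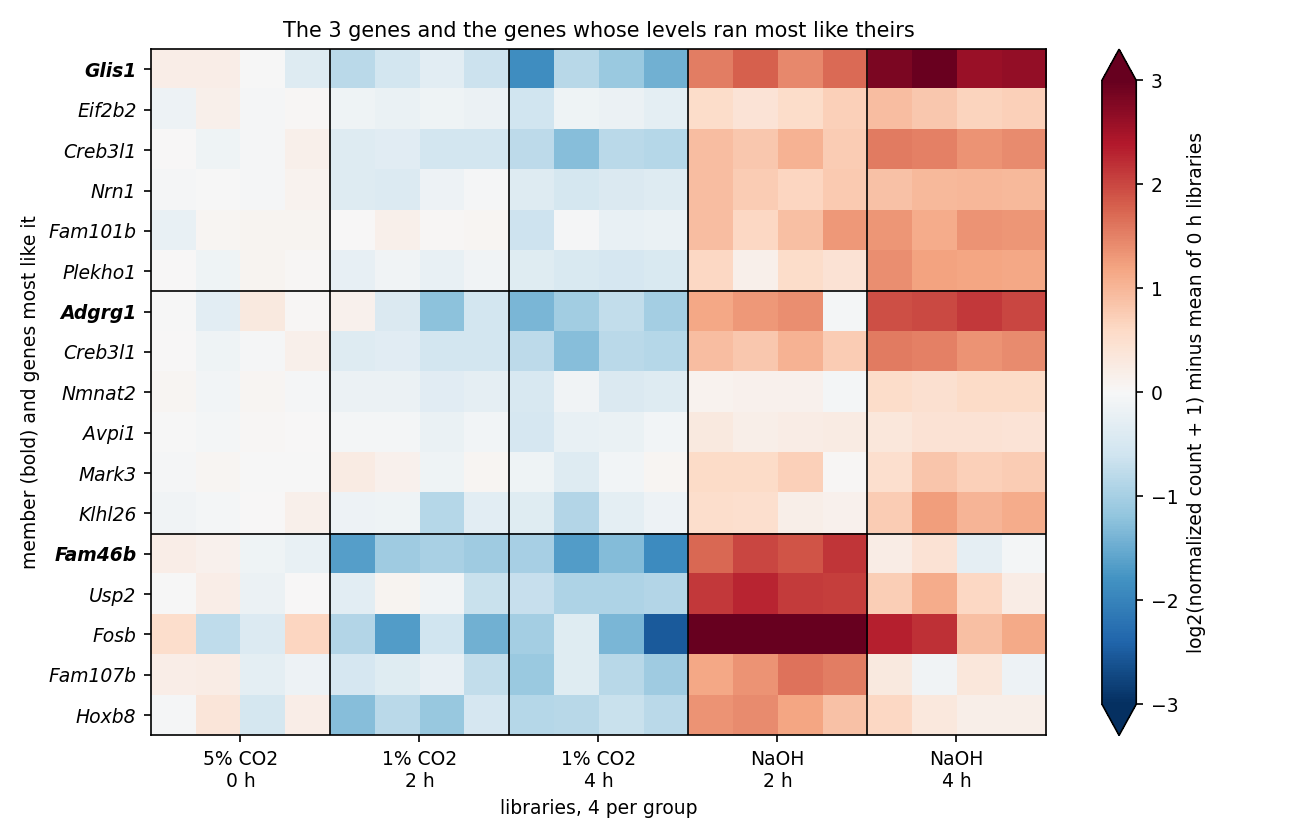
Levels of the 3 members (bold) and of genes among the 5 most like each (rows) in the 20 libraries (columns, 4 per group), as log2 of the normalized count plus 1, minus the mean of the 0 h libraries. Red is above and blue below 0 h. In the upper blocks the NaOH libraries are reddest at 4 h, and in the lower block at 2 h, while most alike genes change less than the member.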

How the data were processed

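The bulk MARS-seq reads of the 20 libraries were processed by the authors in the UTAP pipeline with cutadapt, STAR (2.4.2a in the submitters' processing notes, while the methods give another version), the mm10 genome and HTSeq-count, with RefSeq genes lengthened upstream (1000 bases) and downstream (100 bases). UMI counts of each gene and library, as deposited, were used here. The table also holds a normalized signal, which the authors made by dividing the counts by DESeq2 size factors and which was only checked against them. Because tags come from 3′ ends, use of another polyadenylation site or a change of tail length could alter a count, and this was not tested. The sources used here do not give how the genes of the table were chosen.

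The labels gave groups and replicate numbers. The replicates are biological ones according to the paper, and whether they were separate cultures or days is not stated there or in the labels, so p-values refer to the spread between these samples. A robust quasi-likelihood fit of 5 groups with TMM factors (edgeR 4.0.16, R 4.3.3) tested the 9726 genes whose mean normalized count reached 5 and left out 1349. Totals of 1325293 to 5640523 UMIs limit precision to the counting errors given with the results. The steps were tested on simulated data. Alternatives were library size only, DESeq2 size factors, DESeq2 1.42.0 with the study's settings, other filters, only the groups compared, a replicate term and leaving out each library. The members, gene lists and rules were chosen with earlier results of these data known. Named were the members, called members of the lists (up to 6 each), the 5 genes most like each member, other genes meeting the rule, called neighbours and genes at the thresholds. Glis2, Col3a1, Rhoa, Fam46a, Trnp1 and Dok4, and Btg2, Fos, Pdzrn3 and Zfp462 with the rule at different times, were added after their values were seen. The results of 1 gene that the rule names are not reported here. RefSeq tables (GRCm38.p6) placed 11042 of the 11075 genes and gave promoters for 8872. GENCODE gave strands and overlaps.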

Additional observations from a re-analysis of the deposited data

Results flagged for a closer look

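The change between 2 and 4 h was unlike in the treatments, with a difference in log2FC, NaOH minus 1% CO2, of 1.92 for Glis1, 1.64 for Adgrg1 and -1.63 for Fam46b. The genes were chosen by the same group values, at 4 h for Glis1 and Adgrg1 and at 2 h for Fam46b, so these signs follow from the choice and are no independent result. No library of a member was far enough from the other 3 of its group to stand apart, with the lowest of Fam46b after 2 h of 1% CO2 (9.47 normalized counts, a gap of 0.811 of the range) and of Adgrg1 after 2 h of NaOH (28.7, 0.756) closest to the critical ratio of 0.829.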

How the results depend on the processing

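No direction of a called result reversed. With library size only, which shifted the median log2FC of all genes to -0.07 and -0.12 after 2 and 4 h of 1% CO2 and -0.21 and -0.19 after 2 and 4 h of NaOH, Adgrg1 after 2 h of NaOH had 0.85. With DESeq2 under the study's settings the log2FC of Adgrg1 was -0.87 after 4 h of 1% CO2, 0.94 after 2 h of NaOH and 0.95 between 2 and 4 h of NaOH. There 1 member met the rule at 4 h, and 2 members met it at any pair of times. Of all genes 2 met it at 2 h, 1 at 4 h and 4 at any pair of times. With a mean of at least 20 the counts of genes were 3 at 4 h and 7 at any times, since fewer genes were tested. The cause of the other shifts was not tested.

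Leaving out 1 library at a time, the log2FC of Adgrg1 was -1.21 to -0.96 after 4 h of 1% CO2 (18 of 20 fits called), 0.87 to 1.31 after 2 h of NaOH (16 of 20) and 0.74 to 1.19 between 2 and 4 h of NaOH (18 of 20). The members meeting the rule at 4 h numbered 1 to 2 and the genes 2 to 7, the lowest without replicate 1 of 1% CO2 at 4 h, against 3 to 6 genes at 2 h. The replicate numbers did not pair the libraries, since same-numbered deviations correlated at -0.23 to 0.19 and 2 of 20 libraries correlated best with their own number. With the number as a replicate block, Fam46b had a log2FC of -1.24 and 1.95 after 2 h of 1% CO2 and of NaOH, and no call of a member changed. Spearman's rho kept 2, 3 and 1 of the 5 genes most like Glis1, Adgrg1 and Fam46b. Counts of 5 to 17 UMIs per library at 4 h of 1% CO2 set the precision there.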
